A study of Rattus norvegicus with 17 samples.

Results

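Expression of the proteasome genes was followed in tumour tissue of p27 mutant rats given the PI3K and mTOR inhibitor NVP-BEZ235. Every gene whose single annotated symbol has the form of a proteasome subunit name (Psma, Psmb, Psmc, Psmd, Psme, Psmf or Psmg and a number) was taken, and a gene on more than 1 probe set was represented by its brightest, judged by the mean across arrays. The rule found 47 genes, on 54 probe sets, among the 14506 genes measured. They were 6 alpha and 4 structural beta subunits of the 20S core, the 3 constitutive catalytic subunits (Psmb5, Psmb6, Psmb7), the 3 inducible catalytic subunits of the immunoproteasome (Psmb8, Psmb9, Psmb10), the thymic catalytic subunit Psmb11, 6 ATPases and 11 non-ATPase subunits of the 19S cap, the activator genes Psme1, Psme2, Psme3 and Psme4, and 6 assembly chaperones. The rule also took 3 genes that matched by name and were not on the list of subunits used here (Psma3l, Psmc3ip, Psme3ip1). Psma3, Psma8, Psmf1 and Psmg3 had no probe set with exactly 1 symbol and were not analysed here.

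All 17 samples came from 8-month-old rats of a mixed Sprague-Dawley white eye/Wistar-Kyoto strain with a mutation of p27Kip1, written Cdknb1 in the labels. The sample labels call that mutation homozygous, and the design text of the series calls it heterozygous. The 7 control samples (5 female, 2 male) came from rats given polyethylene glycol (PEG) at 20 mg/kg, 6 samples (4 female, 2 male) from rats given NVP-BEZ235 at 20 mg/kg, and 4 samples (3 female, 1 male) from rats given it at 30 mg/kg. The length of treatment is not given in the sources used here. Nothing in the labels ties each sample to an animal of its own, and every p-value here therefore reflects sample-to-sample spread, part of which may be technical.

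The proteasome is the protease of the cytosol and nucleus that degrades proteins tagged with ubiquitin. Its barrel-shaped core is made of alpha rings, which gate the entry, and beta rings, which hold the proteolytic sites, and a cap of ATPase and non-ATPase subunits recognises, unfolds and feeds in the substrate. Interferon and immune cell identity induce an alternative set of catalytic subunits, in which Psmb8 takes the place of Psmb5 (chymotrypsin-like site), Psmb9 that of Psmb6 (caspase-like site) and Psmb10 that of Psmb7 (trypsin-like site). The resulting immunoproteasome, together with the activator ring formed by the products of Psme1 and Psme2 (PA28 alpha and beta), is known for making peptides for presentation on major histocompatibility complex (MHC) class I molecules.

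The promoters of the 5 interferon-inducible genes are shown because these are the members on which the comparison with the constitutive subunits turns. Each window is RefSeq's sequence of the GRCr8 rat assembly from 250 bases before to 50 bases after the start of the gene, on the strand of the gene. They lie at chr20:4656982-4657281 (minus strand) for Psmb8, chr20:4668750-4669049 (plus strand) for Psmb9, chr19:50743243-50743542 (minus strand) for Psmb10, chr15:33038721-33039020 (plus strand) for Psme1 and chr15:33052702-33053001 (minus strand) for Psme2. Capitals mark matches to GAAANNGAA, the core letters of the interferon-stimulated response element, on either strand.
Psmb8: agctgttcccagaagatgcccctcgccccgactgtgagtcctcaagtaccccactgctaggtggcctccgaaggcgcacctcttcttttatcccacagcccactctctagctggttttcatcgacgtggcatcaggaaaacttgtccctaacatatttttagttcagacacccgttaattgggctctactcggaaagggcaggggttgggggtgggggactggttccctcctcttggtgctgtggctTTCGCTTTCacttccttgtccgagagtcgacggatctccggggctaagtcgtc
Psmb9: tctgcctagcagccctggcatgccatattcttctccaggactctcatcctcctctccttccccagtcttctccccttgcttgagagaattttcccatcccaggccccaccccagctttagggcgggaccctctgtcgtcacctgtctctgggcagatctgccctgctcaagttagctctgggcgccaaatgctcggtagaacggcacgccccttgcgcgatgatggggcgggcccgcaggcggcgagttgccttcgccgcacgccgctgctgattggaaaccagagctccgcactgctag
Psmb10: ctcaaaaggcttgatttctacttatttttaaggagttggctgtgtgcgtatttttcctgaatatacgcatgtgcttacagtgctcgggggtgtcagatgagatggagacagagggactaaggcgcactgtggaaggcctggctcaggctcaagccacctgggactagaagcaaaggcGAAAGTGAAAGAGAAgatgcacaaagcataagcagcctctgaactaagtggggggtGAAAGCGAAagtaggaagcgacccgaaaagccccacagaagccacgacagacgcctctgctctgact
Psme1: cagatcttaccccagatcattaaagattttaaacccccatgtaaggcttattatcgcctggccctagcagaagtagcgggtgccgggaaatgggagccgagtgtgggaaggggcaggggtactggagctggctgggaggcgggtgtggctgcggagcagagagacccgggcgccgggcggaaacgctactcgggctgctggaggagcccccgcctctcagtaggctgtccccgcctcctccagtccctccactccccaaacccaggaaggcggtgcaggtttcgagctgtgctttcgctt
Psme2: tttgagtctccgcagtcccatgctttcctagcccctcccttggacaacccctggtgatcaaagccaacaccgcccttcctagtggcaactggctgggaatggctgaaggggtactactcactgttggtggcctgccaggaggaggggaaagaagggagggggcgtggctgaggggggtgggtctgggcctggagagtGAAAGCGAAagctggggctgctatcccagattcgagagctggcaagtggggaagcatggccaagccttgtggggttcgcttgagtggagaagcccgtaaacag

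GAAANNGAA was found in 3 of these 5 windows, in 5 of the 26 windows of constitutive core and cap subunits (19.2%) and in 9.5% of all 27457 promoter windows of that length. In Psmb10 there were 3 matches, which began at positions -73, -67 and -17 from the start, and those at -73 and -67 overlap. Psme2 had 1 match at -53 and Psmb8 had 1 on the reverse strand at -3. TTCNNNGAA, the letters of a gamma-activated site, was found in Psmb8 alone of the 5 windows, at -245, and in 8.7% of all windows. TGACNNNGC, the core letters of the antioxidant response element, was in none of the 5, in 5 of the 26 constitutive windows (Psmb5 and Psmb6 among them) and in 12.2% of all windows. The NF-Y box CCAAT was in 2 of the 5, in 13 of the 26 and in 37.7% of all windows. Both strands were searched for every motif, and 41 of the 47 members had a window. A match describes letters in the window and not binding.

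On the rat genome Psmb8, Tap1 and Psmb9 are neighbours on chromosome 20, with Tap2 on the other side of Psmb8, so that these immunoproteasome subunits lie beside the genes of the peptide transporter. The windows of Psmb9 and Tap1 lie on opposite strands and share 44 bases. Psme1 and Psme2 lie on chromosome 15 with Emc9 between them, and Rnf31 and Irf9 follow Psme2. Psmb10 lies on chromosome 19.

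The tissue is labelled as pituitary adenoma, whereas the title of the series names pheochromocytoma, a tumour of the adrenal medulla. Markers of chromaffin cells (7 genes measured) had a mean log2 level per array of 9.93 to 11.45, and adrenal cortex markers (8 genes) of 10.35 to 11.74. Pituitary hormone genes (7 genes) had a mean level of 4.06 to 5.06. The lower quartile of all probe sets on an array, those without a symbol included, was 3.65 to 3.91. The markers thus go against the tissue label, and the tissue is called tumour tissue here. The sample titles carry numbers 1 to 4 for the 30 mg/kg group and 5 to 10 for the 20 mg/kg group, and controls numbered 1 to 4 and 5 to 7. The arrays separated by these numbers: the median correlation between arrays over all genes was 0.983 for 20 mg/kg with controls 5 to 7 and 0.966 with controls 1 to 4, and 0.955 for 30 mg/kg with controls 1 to 4 and 0.947 with controls 5 to 7. Dose and number set therefore cannot be told apart in a direct comparison of the doses. Comparisons with control are given below over all controls. They are also given with the number set taken into account, as a term of the fit or by using the controls of the same numbers. Both male controls were numbered 6 and 7.

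The 3 inducible catalytic genes were lower in treated tumours once samples were compared within their title numbers, while their constitutive counterparts did not pass the test. In the fit with sex and number set as terms, Psmb8 fell 1.97-fold, Psmb9 2.21-fold and Psmb10 1.86-fold over both doses. In that limma fit 0 of the 30 constitutive core and cap genes passed the threshold, beside 4.91% of all genes. For 30 genes this count is near the background. Over all controls without the number set, the 3 inducible genes passed at 30 mg/kg and not at 20 mg/kg or over both doses.

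Psmb8 encodes the inducible chymotrypsin-like subunit. Its log2 levels were 7.59, 6.98, 7.20 and 7.20 in controls 1 to 4 and 6.61, 6.22, 6.28 and 5.42 in the 30 mg/kg samples 1 to 4. Controls 5 to 7 had 7.96, 7.86 and 8.01, and the 6 samples at 20 mg/kg ranged from 6.80 to 7.63 with a median of 7.08. Every treated sample thus lay below every control of the same numbers, but the 20 mg/kg samples overlapped controls 1 to 4, which were lower than controls 5 to 7.

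Psmb9 encodes the inducible subunit that takes the place of Psmb6. Its levels were 8.60, 8.36, 8.59 and 8.24 in controls 1 to 4 and 7.24, 7.17, 7.17 and 6.09 at 30 mg/kg, of which the male sample (replicate 4) was the lowest. Controls 5 to 7 had 8.36, 9.11 and 9.46, and the 20 mg/kg samples ranged from 7.93 to 8.49 with a median of 8.27. The 30 mg/kg samples lay below all 7 controls, as for 2.01% of all genes. The 20 mg/kg samples overlapped control 5, the only female of controls 5 to 7, and lay below both males.

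Psmb10 encodes the inducible trypsin-like subunit. Its levels were 7.76, 7.58, 8.07 and 8.21 in controls 1 to 4 and 6.95, 6.83, 7.42 and 6.64 at 30 mg/kg. Controls 5 to 7 had 8.87, 8.58 and 9.06, and the 20 mg/kg samples ranged from 7.64 to 8.38 with a median of 8.07. As for Psmb8, no treated sample reached a control of its own numbers, and the 20 mg/kg samples overlapped controls 1 to 4.

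**Figure D1:**
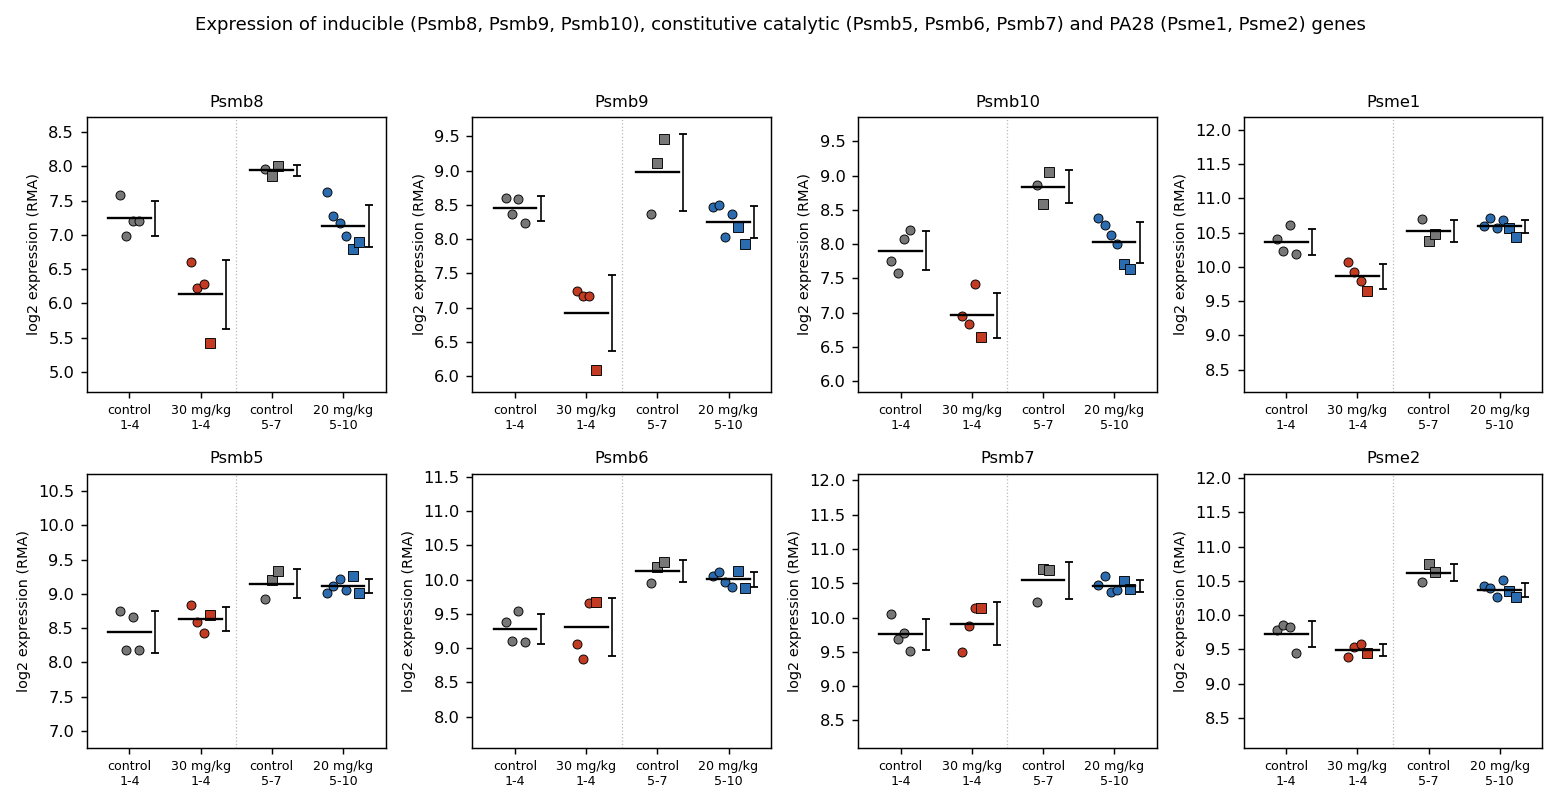
Log2 expression per sample (y axis, each panel spanning the same number of log2 units) of the inducible catalytic genes, their constitutive counterparts and the PA28 genes, by dose and title number (x axis); circles are female and squares male, the bar is the group mean and the whisker the SD. For Psmb8 and Psmb10 every treated sample lies below every control of the same numbers, and for Psmb5 and Psmb7 the groups overlap.

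Against all 7 controls, with sex as a term, 7 of the 47 members passed the threshold of an adjusted p of 0.05 (limma, Benjamini-Hochberg over 14506 genes) at 30 mg/kg. Of these, 6 were lower, beside 4.89% of all genes, and 1 was higher, beside 3.66% of all genes. Psmb9 fell by 1.76 on the log2 scale (SE 0.25, 3.39-fold, limma adjusted p = 0.00057), Psmb8 by 1.41 (SE 0.24, 2.66-fold, adjusted p = 0.0020) and Psmb10 by 1.35 (SE 0.26, 2.54-fold, adjusted p = 0.0045). The other lower members were Psme1, Psmg2 and Psmg1, and Psmd3 was higher. The median difference was -1.35 over the 5 inducible and PA28 genes, -0.11 over the 30 constitutive core and cap genes, and 0.01 over all genes. Psmb8, Psmb9, Psmb10 and Psme1 passed in each of 17 fits that left out 1 sample, with adjusted p of at most 0.037.

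Against controls 1 to 4 alone, which leaves 4 samples a group, 1 member passed at 30 mg/kg, beside 0.0827% of all genes that were lower. This was Psmb9, at -1.26 (SE 0.15, 2.39-fold lower, limma adjusted p = 0.024). Psmb8 was at -0.87 (SE 0.18, adjusted p = 0.17) and Psmb10 at -0.84 (SE 0.21, adjusted p = 0.24). The sex term of this fit takes up the only male, the 30 mg/kg replicate 4, in which Psmb8, Psmb9 and Psmb10 were each lowest, so these values rest on the female samples. In the fit over all samples with the number set as a term, Psmb9 fell by 1.48 at 30 mg/kg (SE 0.25, adjusted p = 0.0075), Psmb8 by 0.99 (SE 0.18, adjusted p = 0.0095) and Psmb10 by 0.85 (SE 0.17, adjusted p = 0.018). All 4 of the 30 mg/kg samples were below all of controls 1 to 4 for 4 members (Psmb8, Psmb9, Psmb10, Psme1), as for 3.52% of all genes.

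At 20 mg/kg against all 7 controls, 0 of the 47 members passed in limma, beside 1.18% of all genes. At an unadjusted p under 0.05 were 7 members (14.9%), beside 17.4% of all genes, so this count is no larger than the background. The 7 were constitutive core or cap genes with higher levels, which is 23.3% of those 30 genes, and included Psmb5 and Psmb7 (0.35 each). Of the 2522 genes at that p, 1008 were lower. Against controls 5 to 7 alone, 3 of the 30 (10%) were at such a p, all lower, beside 16.2% of all genes. The inducible genes were at -0.40 (SE 0.21, adjusted p = 0.33) for Psmb8, -0.43 (SE 0.22, adjusted p = 0.32) for Psmb9 and -0.28 (SE 0.23, adjusted p = 0.56) for Psmb10. Against controls 5 to 7 alone, 2 members passed, beside 0.979% of all genes that were lower. They were Psmb10, which fell by 0.94 (SE 0.15, 1.91-fold, adjusted p = 0.018), and Psmb8, which fell by 0.91 (SE 0.15, 1.88-fold, adjusted p = 0.021), while Psmb9 was at -0.69 (SE 0.23, adjusted p = 0.17). With the number set as a term Psmb8 fell by 0.97 at 20 mg/kg (SE 0.18, adjusted p = 0.028) and Psmb10 by 0.94 (SE 0.18, adjusted p = 0.028), and Psmb9 was at -0.80 (SE 0.26, adjusted p = 0.28). All 20 mg/kg samples were below all of controls 5 to 7 for 7 members (Psmb8, Psmb10, Psmb2, Psma2, Psma7, Psmd14, Psma3l), as for 2.9% of all genes, so most members in this count were not inducible subunits.

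**Figure D2:**
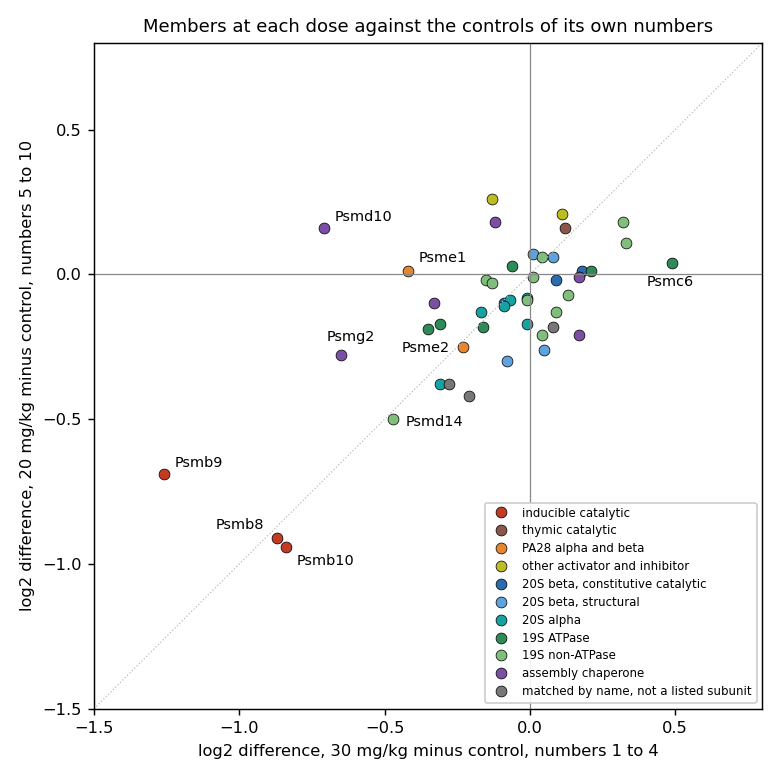
Log2 difference of each member at 30 mg/kg against controls 1 to 4 (x axis) and at 20 mg/kg against controls 5 to 7 (y axis), coloured by role, from fits with sex as a term; the dotted line marks equal values. Psmb8, Psmb9 and Psmb10 stand in the lower left, at -0.87, -1.26 and -0.84 on the x axis and -0.91, -0.69 and -0.94 on the y axis.

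Over both doses with sex as the only further term, 0 of the 47 members passed in limma, beside 1.48% of all genes, and 6 (12.8%) had an unadjusted p under 0.05, beside 14.4% of all genes. Psmb8 was at -0.81 (SE 0.26, adjusted p = 0.13), Psmb9 at -0.96 (SE 0.31, adjusted p = 0.13) and Psmb10 at -0.71 (SE 0.28, adjusted p = 0.24). With the number set as a second term, 4 members passed, all lower, beside 2.75% of all genes that were lower and 2.16% that were higher. Psmb8 fell by 0.98 (SE 0.12, adjusted p = 0.00029), Psmb9 by 1.15 (SE 0.19, adjusted p = 0.0026), Psmb10 by 0.90 (SE 0.12, adjusted p = 0.00044) and the chaperone gene Psmg2 by 0.55 (SE 0.14, adjusted p = 0.038). For all 3 inducible genes the difference was larger and the standard error smaller than in the fit without the number set. The inducible genes passed in each of 17 such fits that left out 1 sample, with adjusted p of at most 0.012, and Psmg2 in 4 of 17 (without control 2 or 5, the 30 mg/kg replicate 2 or the 20 mg/kg replicate 9), with adjusted p of up to 0.10 in the others.

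**Figure D3:**
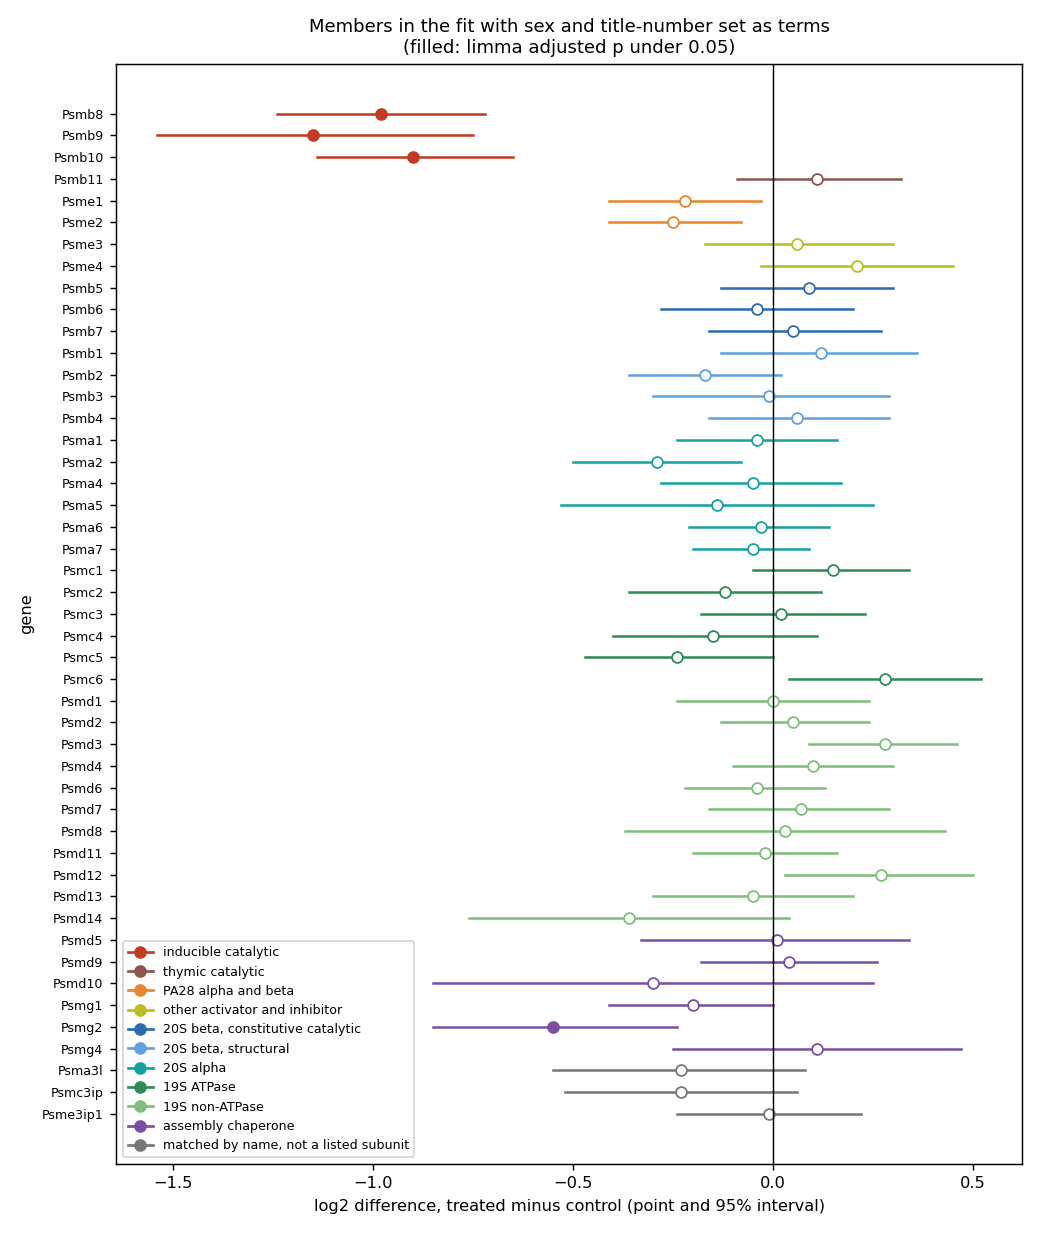
Log2 difference between treated and control samples (x axis, point and 95% interval) of each of the 47 members (y axis), coloured by role, in the fit with sex and number set as terms; filled points passed the threshold. The intervals of Psmb8, Psmb9 and Psmb10 lie between -1.54 and -0.65, and of the other members only Psmg2 is filled.

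Each inducible subunit was set against the constitutive subunit whose place it takes, as the log2 level of the first minus that of the second on the same array. Different probe sets respond differently, so only the change of this difference between groups is read, and it shows unequal change and not that 1 of the genes stayed the same. Psmb8 minus Psmb5 was -1.16, -1.20, -1.46 and -0.99 in controls 1 to 4 and -2.22, -2.37, -2.15 and -3.27 at 30 mg/kg. In controls 5 to 7 it was -0.96, -1.35 and -1.32, and at 20 mg/kg it ranged from -2.46 to -1.39. Among all samples only 1 value at 20 mg/kg (replicate 5, -1.39) lay within the range of the controls.

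For Psmb9 minus Psmb6 the controls had -0.78, -0.74, -0.95 and -0.85 (numbers 1 to 4) and -1.59, -1.07 and -0.79 (5 to 7). The 30 mg/kg samples had -1.83, -1.67, -2.49 and -3.58, and the 20 mg/kg samples ranged from -1.94 to -1.53. Control 5 was the lowest control and overlapped the 20 mg/kg samples. For Psmb10 minus Psmb7 the controls had -2.29, -2.09, -1.70 and -1.31 (1 to 4) and -1.36, -2.13 and -1.62 (5 to 7), against -2.55, -3.05, -2.73 and -3.50 at 30 mg/kg and -2.82 to -2.10 at 20 mg/kg. Here the 20 mg/kg samples overlapped the controls, and the 30 mg/kg samples did not.

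Over both doses the mean difference from control was -0.99 for Psmb8 minus Psmb5 (exact two-sided permutation test, p = 0.00026, adjusted over 3 pairs 0.00039), -1.04 for Psmb9 minus Psmb6 (exact p = 0.00021, adjusted 0.00039) and -0.86 for Psmb10 minus Psmb7 (exact p = 0.00057, adjusted 0.00057). This test takes no account of sex or number set. At 30 mg/kg against controls 1 to 4 the differences were -1.30, -1.56 and -1.11, each with an exact permutation p of 0.029, the smallest that 4 against 4 samples can give. At 20 mg/kg against controls 5 to 7 they were -0.78, -0.61 and -0.74, with exact permutation p of 0.012, 0.036 and 0.024 and an adjusted p of 0.036 for each. At 20 mg/kg the mean shift passed this test for each pair, although Psmb9 minus Psmb6 overlapped control 5 and Psmb10 minus Psmb7 overlapped control 6.

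**Figure D4:**
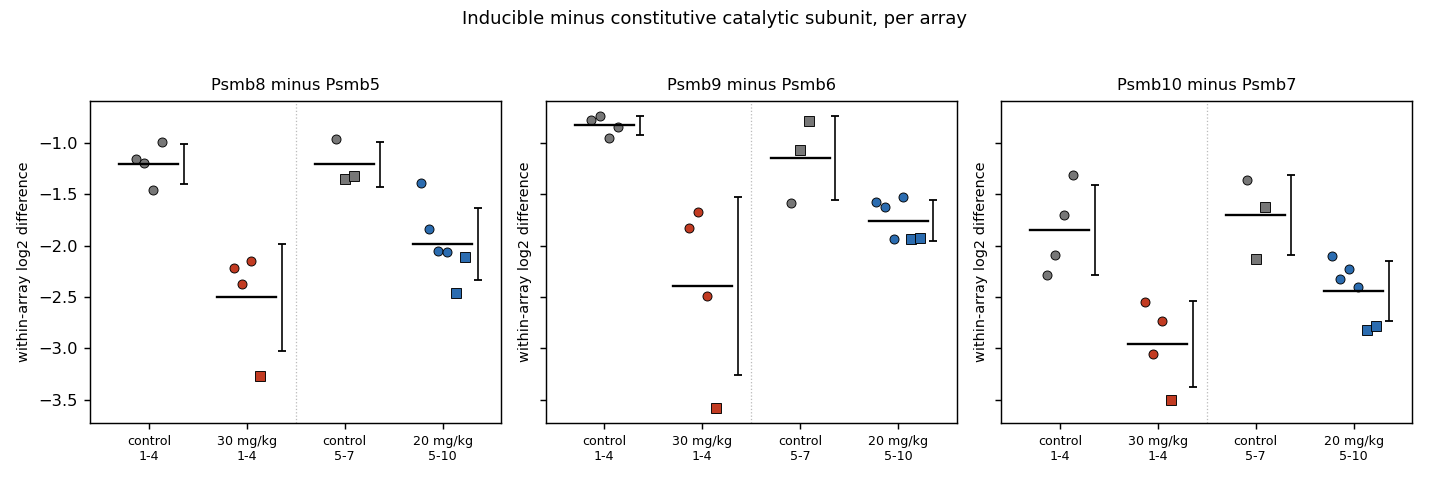
Log2 level of each inducible catalytic gene minus that of its constitutive counterpart on the same array (y axis), by dose and title number (x axis); circles are female, squares male, bars means and whiskers SD. The 30 mg/kg samples lie below all controls in each of the 3 pairs, and control 5 (-1.59) is the lowest control for Psmb9 minus Psmb6.

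The constitutive catalytic subunits themselves did not pass in any comparison with control. Psmb5 had 8.75, 8.18, 8.67 and 8.18 in controls 1 to 4, 8.84, 8.59, 8.43 and 8.69 at 30 mg/kg, 8.92, 9.20 and 9.33 in controls 5 to 7, and 9.01 to 9.26 at 20 mg/kg. Controls 5 to 7 were all above controls 1 to 4, and within each number set treated and control samples overlapped. In the fit with sex and number set, Psmb5 was at 0.09 (95% interval -0.13 to 0.30), Psmb6 at -0.04 (-0.28 to 0.20) and Psmb7 at 0.05 (-0.16 to 0.27). Changes within those intervals in either direction cannot be told from none with these samples. The second, dimmer probe set of Psmb6 was at -0.22 in that fit (SE 0.11, limma adjusted p = 0.36 over all probe sets). The size of the difference for Psmb6 thus depends on the probe set, and Psmb9 minus Psmb6 used the brighter.

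The PA28 genes moved less than the inducible catalytic genes. Psme1 (PA28 alpha) had 10.40, 10.23, 10.60 and 10.19 in controls 1 to 4 and 10.07, 9.93, 9.80 and 9.65 at 30 mg/kg, with 10.70, 10.38 and 10.48 in controls 5 to 7 and 10.44 to 10.71 at 20 mg/kg. The 30 mg/kg samples were below every control, as for 2.01% of all genes, and the 20 mg/kg samples overlapped the controls. Psme1 fell by 0.57 at 30 mg/kg against all controls (SE 0.11, 1.48-fold, adjusted p = 0.0050) and by 0.44 with the number set as a term (SE 0.11, adjusted p = 0.043), and was at -0.42 against controls 1 to 4 alone (SE 0.16, adjusted p = 0.44) and at 0.01 at 20 mg/kg against controls 5 to 7 (SE 0.10, adjusted p = 0.97).

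Psme2 (PA28 beta) had 9.78, 9.86, 9.83 and 9.45 in controls 1 to 4 and 9.39, 9.53, 9.58 and 9.44 at 30 mg/kg, with 10.49, 10.74 and 10.63 in controls 5 to 7 and 10.26 to 10.52 at 20 mg/kg. The groups overlapped within each number set, and the largest gap was between the sets. It was at -0.61 at 30 mg/kg against all controls (SE 0.19, adjusted p = 0.051) and at -0.25 over both doses with the number set (SE 0.08, adjusted p = 0.074). Its second, dimmer probe set was at -0.32 in that fit (SE 0.08, adjusted p = 0.041 over all probe sets), so the call depends on the probe set. Of the other activators, Psme3 (PA28 gamma) was at 0.06 (SE 0.11, adjusted p = 0.83) and Psme4 (PA200) at 0.21 (SE 0.11, adjusted p = 0.33) in the fit with the number set.

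Among the 20S core and 19S cap genes, Psmd3, a scaffold subunit of the lid of the cap, was the only one that passed against control at 30 mg/kg. Its levels were 8.67, 8.42, 8.55 and 8.39 in controls 1 to 4, 7.99, 8.45 and 8.49 in controls 5 to 7, 8.75, 8.61, 9.13 and 9.31 at 30 mg/kg and 8.24 to 8.57 at 20 mg/kg. The 30 mg/kg samples were higher except that replicate 2 overlapped control 1. Psmd3 rose by 0.53 (SE 0.13, 1.45-fold, adjusted p = 0.019), but it did not pass without the 30 mg/kg replicate 3 or without replicate 4 (adjusted p up to 0.11), or with the number set (0.36, SE 0.13, adjusted p = 0.14).

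The constitutive genes with the largest differences over both doses were Psmc6 and Psmc1, which encode ATPases of the cap, the lid subunits Psmd12 and Psmd3, and Psmd14, the deubiquitinase of the lid. In the fit with sex, Psmc6 was at 0.31 (SE 0.12, adjusted p = 0.22), Psmd12 at 0.29 (SE 0.11, adjusted p = 0.24), Psmc1 at 0.20 (SE 0.12, adjusted p = 0.49) and Psmd14 at -0.28 (SE 0.22, adjusted p = 0.64). None passed, and the 30 constitutive genes ranged from -0.28 to 0.31 with a median of 0.04, against -0.00 over all genes. With the number set they ranged from -0.36 to 0.28 with a median of -0.01, and 4 of 30 (13.3%) had an unadjusted p under 0.05, beside 19.9% of all genes.

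By role, the medians in the fit with sex and number set were -0.98 for the inducible catalytic genes, -0.24 for PA28 alpha and beta, 0.05 for the constitutive catalytic genes, 0.03 for the structural beta genes, -0.05 for the alpha genes, -0.05 for the cap ATPases and 0.03 for the cap non-ATPases. Psmb11, the catalytic subunit of the thymus, was dim (mean log2 level 3.89) and at 0.11 (SE 0.10, adjusted p = 0.58). The median of the 6 assembly chaperones was -0.10.

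Psmg1 and Psmg2 form a dimer that guides the assembly of the alpha ring. Psmg2 had 7.40, 7.04, 7.50 and 7.75 in controls 1 to 4, 7.23, 7.96 and 7.84 in controls 5 to 7, 6.44, 7.21, 6.66 and 6.40 at 30 mg/kg and 7.11 to 7.51 at 20 mg/kg. At 30 mg/kg all but replicate 2 were below every control. Psmg2 fell by 0.85 at 30 mg/kg against all controls (SE 0.18, 1.80-fold, adjusted p = 0.0076) and missed the threshold without the 30 mg/kg replicate 4 (adjusted p = 0.058). Psmg1 fell by 0.55 (SE 0.16, 1.46-fold, adjusted p = 0.037), and passed in 11 of 17 fits that left out 1 sample; it missed without control 5, 6 or 7 or without the 30 mg/kg replicate 1, 3 or 4 (adjusted p up to 0.14). With the number set Psmg1 was at -0.31 at that dose (SE 0.14, adjusted p = 0.26).

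Between the doses, with sex as a term, 15 members passed at 30 against 20 mg/kg. Of these 14 were lower, beside 8.16% of all genes, and 1 (Psmd3) was higher, beside 3.92%. The lower members were all 5 inducible and PA28 genes, the chaperones Psmd10, Psmg1 and Psmg2, and 6 core or cap genes (Psma2, Psma6, Psmb4, Psmb6, Psmc5, Psmd6). Psmb9 differed by -1.33 (SE 0.25, adjusted p = 0.0061), Psmb10 by -1.06 (SE 0.26, adjusted p = 0.018), Psmb8 by -1.01 (SE 0.24, adjusted p = 0.016), Psme2 by -0.86 (SE 0.19, adjusted p = 0.013) and Psme1 by -0.74 (SE 0.11, adjusted p = 0.0030). Without the 30 mg/kg replicate 4 only Psmb9 and Psme1 passed.

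The lower core and cap members and Psmd10 differed between the doses without separating the 30 mg/kg samples from the controls. Psmd10, which encodes the cap chaperone gankyrin, ranged from 5.23 to 5.70 at 30 mg/kg and 6.08 to 6.73 at 20 mg/kg, with 5.11 to 7.42 in the controls. The alpha subunit gene Psma2 ranged from 9.25 to 9.80 and 10.09 to 10.27 at those doses, with 9.32 to 10.59 in the controls, and Psma6 from 9.75 to 10.23 and 10.45 to 10.66, with 9.79 to 10.68. Psmb4, a structural beta gene, ranged from 9.71 to 10.49 and 10.68 to 10.93, with 9.83 to 10.84 in the controls. The ATPase gene Psmc5 ranged from 7.71 to 8.48 and 8.76 to 9.08, with 7.99 to 9.17, and the lid gene Psmd6 from 8.99 to 9.39 and 9.38 to 9.88, with 9.19 to 9.67. These genes are named because they passed between the doses, so a lack of overlap between the doses is no further result. In each gene the control range covered part of both doses.

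With the number set as a term 0 members and 0% of all genes passed between the doses in limma, with 2 members and 971 genes at an unadjusted p under 0.05. In that fit Psmb8 was at -0.02 (95% interval -0.59 to 0.54), Psmb10 at 0.09 (-0.45 to 0.63) and Psmb9 at -0.68 (-1.47 to 0.11). The sets alone differ in the controls: Psmb6 had 9.38, 9.10, 9.54 and 9.09 in controls 1 to 4 and 9.95, 10.18 and 10.25 in controls 5 to 7, without overlap. Without the number set as a term, a dose effect on these genes therefore cannot be told apart from the number sets. With it, the intervals given above include differences in either direction.

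The difference was also looked at by sex. Among female samples, with the number set as a term, Psmb8 fell by 0.81 over both doses (SE 0.15, adjusted p = 0.032) and Psmb10 by 0.79 (SE 0.15, adjusted p = 0.036), and Psmb9 was at -0.86 (SE 0.20, adjusted p = 0.078). At 30 mg/kg Psmb9 fell by 1.26 in females (SE 0.14, adjusted p = 0.0019). At 20 mg/kg it was at -0.02, but there the only female control of the same numbers is replicate 5. That sample was the lowest control for Psmb9 minus Psmb6, and the spread is assumed to be that of the other groups. The value is therefore not read as a test and was not compared between the doses. A product of treatment and sex passed for 0 members and 0 genes in limma, with 0 members and 663 genes at an unadjusted p under 0.05. Males were few, 2 in the controls, 2 at 20 mg/kg and 1 at 30 mg/kg.

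Genes that work with the immunoproteasome in class I presentation were compared next. Of 24 listed, 18 were measured, and with the number set 2 passed, both lower, beside 2.75% of all genes that were lower: the class I heavy chain gene RT1-S3, which fell by 0.69 (SE 0.19, adjusted p = 0.046), and the class I gene RT1-T24-4, which fell by 0.42 (SE 0.11, adjusted p = 0.032). Against all controls 3 passed at 30 mg/kg, RT1-S3 (-1.17), RT1-M3-1 (-1.16) and RT1-T24-4 (-0.56), all lower, beside 4.89% of all genes. Tap1, which lies between Psmb8 and Psmb9 and encodes a chain of the peptide transporter, was at -0.27 with the number set (SE 0.12, adjusted p = 0.22) and its partner Tap2 at 0.14 (SE 0.13, adjusted p = 0.64). B2m, the light chain of class I, was at -0.22 (SE 0.07, adjusted p = 0.079). Tapbpl was at -0.24 over both doses without the number set (SE 0.11, adjusted p = 0.35). The median over the list was -0.16, against 0.00 over all genes and -0.98 over the inducible catalytic genes.

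Of the interferon signalling genes, 14 of 17 were measured. In the fit with the number set 2 passed, both lower, beside 2.75% of all genes that were lower: Stat2, a transcription factor of the type I interferon response, fell by 0.48 (SE 0.12, adjusted p = 0.028), and Irf8, a factor of myeloid and lymphoid cells, by 0.31 (SE 0.08, adjusted p = 0.044). Against all controls at 30 mg/kg Stat2 fell by 0.64 (adjusted p = 0.011), while Ifngr2 (0.65, adjusted p = 0.0020), Ifnar1 (0.48, adjusted p = 0.044), both chains of interferon receptors, and Rela (0.72, adjusted p = 0.011), a subunit of NF-kB, rose, beside 4.89% of all genes that were lower and 3.66% that were higher. Irf2, an antagonist of Irf1, was at 0.37 over both doses without the number set (SE 0.15, adjusted p = 0.24), and Jak1, a kinase of both receptors, differed by -0.42 between the doses (SE 0.13, adjusted p = 0.046). Irf1, an inducer of immunoproteasome genes, was at -0.19 (SE 0.16, adjusted p = 0.57) with the number set, and the list's median was 0.02.

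Of the ubiquitin genes, 5 of 9 were measured and 1 passed, beside 2.75% of all genes that were lower. Ube2l6, which conjugates the interferon-induced ubiquitin-like protein ISG15, fell by 0.73 with the number set (SE 0.15, adjusted p = 0.0096) and by 1.19 at 30 mg/kg against all controls (SE 0.19, adjusted p = 0.0014). The activating enzyme genes Uba6 (0.16) and Uba1 (-0.09) did not pass over both doses. Of 11 measured among 15 proteasome-associated and assembly genes, 0 passed with the number set in limma. Against all controls at 30 mg/kg Sem1, a small subunit of the cap that the name rule does not reach, fell by 0.67 (SE 0.20, adjusted p = 0.042). Uchl5, a deubiquitinase of the cap, differed by -0.81 at 30 against 20 mg/kg with sex as a term (SE 0.23, adjusted p = 0.032). Akirin2, which helps to import proteasomes into the nucleus, was at 0.28 over both doses without the number set (SE 0.09, adjusted p = 0.14), and Ipo9 (0.16) and Ubqln2 (0.28) also did not pass. Pomp, the maturation factor of the core, was at -0.12 (SE 0.10, adjusted p = 0.58) with the number set.

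All 10 genes listed for the control of constitutive proteasome genes by the transcription factor NRF1 (Nfe2l1) were measured. Among them Mafk, a small Maf partner of such factors, rose by 0.54 with the number set (SE 0.12, adjusted p = 0.014), beside 2.16% of all genes that were higher. Ufd1 was at 0.27 over both doses without the number set (SE 0.10, adjusted p = 0.22). At 30 mg/kg against all controls Mafk (0.63, adjusted p = 0.021) and Ddi2 (0.65, adjusted p = 0.025), the protease that activates NRF1, rose. Nfe2l1 itself was at -0.07 (SE 0.10, adjusted p = 0.79) with the number set.

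Psmb8, Psmb9 and Psmb10 are also expressed in leukocytes, so markers of these cells are given beside them. Ptprc, the pan-leukocyte gene that encodes CD45, ranged from 6.12 to 6.72 in the controls, from 4.82 to 5.73 at 20 mg/kg and from 4.67 to 5.51 at 30 mg/kg, so that treated and control samples did not overlap. It fell by 1.29 with the number set (SE 0.15, adjusted p = 0.00022), Aif1 of macrophages fell by 1.25 (SE 0.15, adjusted p = 0.00022) and the Fc receptor gene Fcgr3a by 1.06 (SE 0.18, adjusted p = 0.0032). Those 3 of 14 measured macrophage and dendritic markers passed, all lower, with a median of -0.24, beside 2.75% of all genes that were lower. Of 13 genes measured on the lymphocyte list 4 passed, all lower, beside the same share of all genes, and the list's median was -0.40. The 4 were Cd2 (-0.51), Cd3d (-0.98), Cd3g (-0.73) and Cd4 (-0.61). Several of these were dim: Cd3g averaged 3.59 at 20 mg/kg and 3.61 at 30 mg/kg and Cd2 4.14 in all treated samples. The lower quartile of all probe sets on an array was 3.65 to 3.91, so the size of the differences of these dim genes is uncertain. Without the number set, 5 of the 14 macrophage and dendritic markers passed at 30 mg/kg against all controls. All 5 were lower, beside 4.89% of all genes, and Csf1r (-0.66) and C1qa (-0.93) were among them. The 14 markers did not all fall: they ranged from -1.68 to 0.71 with a median of -0.40.

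Averaged over the list on each array, lymphocyte markers ranged from 4.50 to 4.76 in the controls, 4.23 to 4.38 at 20 mg/kg and 4.17 to 4.32 at 30 mg/kg. The treated samples lay below all controls, at levels not far above the lower quartile of all probe sets on an array. Macrophage and dendritic markers ranged from 6.83 to 7.34 in the controls, 6.68 to 7.17 at 20 mg/kg and 6.40 to 7.13 at 30 mg/kg, and overlapped. The inducible catalytic genes ranged from 7.64 to 8.84, 7.49 to 8.16 and 6.05 to 6.95. The part of these cells in the lower levels of Psmb8, Psmb9 and Psmb10 was not tested, and in bulk tissue fewer cells of a type and less RNA per cell cannot be told apart.

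**Figure D5:**
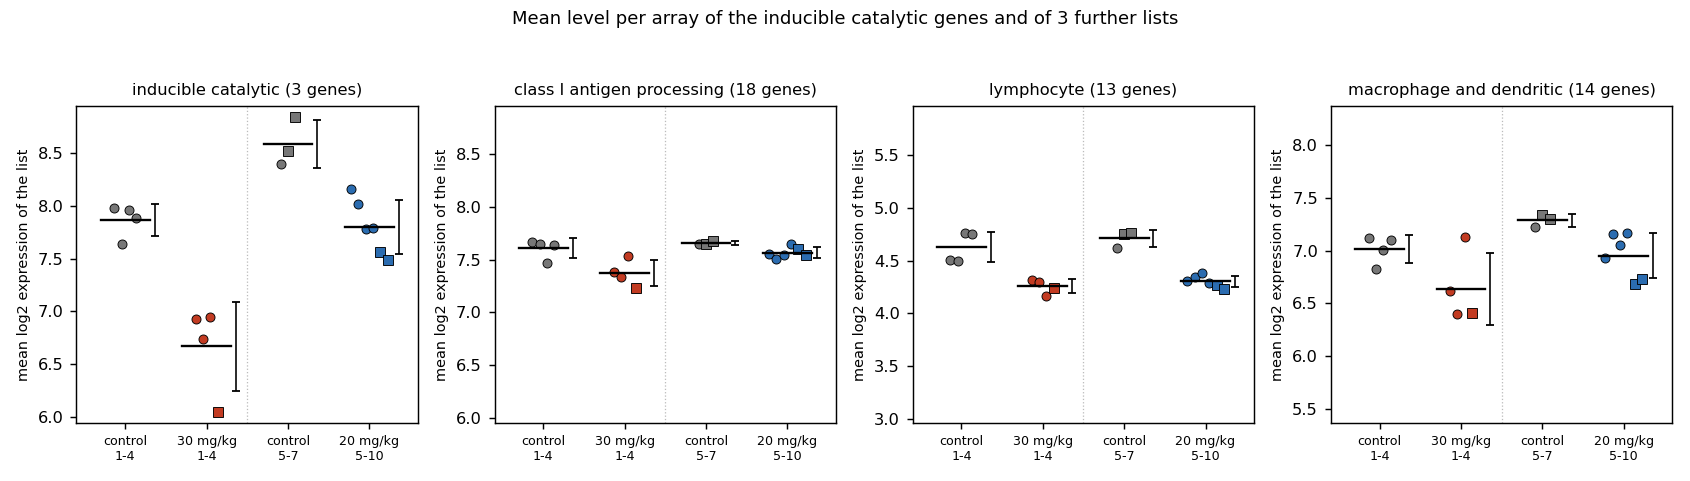
Mean log2 level per array (y axis, panels of equal span) of the inducible catalytic genes, class I antigen processing genes, lymphocyte markers and macrophage and dendritic markers, by dose and title number (x axis); circles are female, squares male, bars means and whiskers SD. Lymphocyte markers are at 4.38 or below in all treated samples and at 4.50 or above in all controls, and class I genes range from 7.23 to 7.68 over all samples.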

How the data were processed

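The 17 RNA samples were hybridised to 1 Affymetrix array each. The deposited values are on a log2 scale; RMA, with no version given, and Affymetrix Expression Console 1.3.0.187 are named in the submitters' processing notes. RMA corrects background, normalizes the arrays to 1 distribution and summarises probes, so a shift shared by all genes would not show. Of 29214 probe sets, 15310 had 1 symbol in the platform annotation, 323 had several and 13581 had none. Taking the brightest probe set of each symbol left 14506 genes.

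Each gene was modelled in limma (version 3.58.1, R version 4.3.3), whose moderated two-sided p-values were corrected by Benjamini-Hochberg across 14506 genes and called at 0.05; the fits were tested on simulated data. The main fits had sex as a term. Alternatives were the set of title numbers as a term, each number set alone, female samples alone, other normalizations, filters, probe set rules and variance settings, a replicate block, and each sample left out in turn. The fit of female samples with the number set and the product of treatment and sex were added after seeing the data. Pairs of subunits were compared by exact permutation over samples.

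Members and gene lists were chosen with earlier results of these data known. Named genes were the inducible and PA28 genes with their counterparts, members past the threshold in any of 4 comparisons, and the 5 constitutive genes with the largest differences; of each further list, the genes past the threshold in any comparison and the 3 with the smallest p over both doses. Immune marker lists are given mainly as ranges and counts, and tissue marker lists above as ranges. With the number set, 1 of 7 chromaffin markers passed (Th, higher) and 1 of 8 adrenal cortex markers (Mc2r, lower). Beside these, 2.16% of all genes were higher and 2.75% lower. At 30 mg/kg against all controls 1 chromaffin marker passed (Ddc, lower), beside 4.89% of all genes. Tap1, Tap2, Irf1, Nfe2l1 and Pomp were named after their values were seen. The number of arrays limits the precision, and levels of different probe sets are not comparable. No table of protein sequences was used here.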

Additional observations from a re-analysis of the deposited data

Results flagged for a closer look

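In groups of 4 to 7 samples, single samples that stood far from the rest of their group were looked for. The search covered the 21 named members, with 3 groups each, and the 3 pairs. The limit was one that chance passes in about 1 of 20 groups. It was passed by 3 values, no more than chance would give at that limit. Psmd3 was lowest in control replicate 5, at 7.99, with the next control at 8.39. Psmb9 was lowest in the 30 mg/kg replicate 4, the only male of that group, at 6.09, with the next sample at 7.17. Psmb9 minus Psmb6 was lowest among the controls in replicate 5, at -1.59, with the next at -1.07.

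A difference between the doses, tested as 30 minus 20 mg/kg with sex as a term, was past the threshold for 15 members. The inducible and PA28 genes differed by -1.33 (Psmb9), -1.06 (Psmb10), -1.01 (Psmb8), -0.86 (Psme2) and -0.74 (Psme1). The assembly chaperones differed by -1.07 (Psmd10), -0.78 (Psmg1) and -0.64 (Psmg2). Of the core and cap genes, Psmb6 differed by -0.66, Psmc5 by -0.66, Psma2 by -0.62, Psmb4 by -0.58, Psma6 by -0.50, Psmd6 by -0.42 and Psmd3 by 0.57. With the number set as a term none of the 15 passed, and without it dose and title number cannot be told apart.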

How the results depend on the processing

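The direction of the difference over both doses was the same in all alternatives for the median of the inducible and PA28 genes, which was -0.71 and ranged over the other settings from -0.90 (number set as a term) to -0.39 (female samples alone). The count of members past the threshold over both doses, 0 in the fit with sex, was 4 with the number set and 2 in female samples with the number set. Treated against control within numbers 1 to 4 (30 mg/kg only) it was 1, and within numbers 5 to 10 (20 mg/kg only) it was 2. At 20 mg/kg, 0 in the fit with sex, it was 2 with the number set. At 30 mg/kg the count of 7 became 4 with the number set, 2 in female samples and 1 in female samples with the number set; leaving out 1 sample gave 4 (without the 30 mg/kg replicate 4) to 11 (without control replicate 2). Between the doses the count of 15 became 0 with the number set, 5 in female samples, 0 in female samples with the number set and 3 at an adjusted p of 0.01; leaving out 1 sample gave 2 to 17. The cause of these changes was not tested, except that fits within 1 number set or sex hold fewer samples. The share of all genes past the threshold changed too. With sex and with the number set it was 1.48% and 4.91% over both doses, and 1.18% and 0.358% at 20 mg/kg. At 30 mg/kg these fits gave 8.55% and 3.01%, and between the doses 12.1% and 0%. Within numbers 1 to 4 it was 0.11%, and within 5 to 10 it was 1.19%. For the other settings it is not given here, so their counts are not read as a result about the members.

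Same-numbered samples showed only weak correlations of their deviations from the group means, from -0.18 to 0.08 over 7 numbers. From the means of group and number set the correlations ran from -0.29 to 0.23. These values gave no sign that the numbers pair the samples, but with 7 numbers they cannot exclude it. With the replicate number as a block, 3 members passed over both doses (Psmb8, Psmb9, Psmb10), beside 1.59% of all genes. In limma 0 passed at 30 mg/kg, with 9 (19.1%) at an unadjusted p under 0.05 beside 13.6% of all genes, and 0 between the doses, with 1 (2.13%) at an unadjusted p under 0.05 beside 4.05% of all genes.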
